A study of Mus musculus with 24 samples.

Results

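The smooth muscle contractile genes Acta2, Actg2, Myh11, Myl9, Tpm1, Tpm2, Tagln, Cnn1, Lmod1 and Des were taken by symbol from a table of counts for mouse liver, as 10 of its 56205 genes. Whole livers of C57BL/6J mice were sequenced after 20 weeks on a high-fat diet, which the study describes as palm oil fat with fructose and cholesterol, or on its control diet. Each diet had 12 libraries, numbered as replicates 1 to 12. The mice were 8 to 10 weeks old when the diet began, are not described as carrying an engineered allele, and were of both sexes, 6 per diet and sex, although the labels give no sex for a library. The libraries were made from polyadenylated RNA of whole tissue, in which fewer cells of a type and less RNA per cell cannot be told apart.

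Smooth muscle contracts when myosin, made of heavy chains such as Myh11 and regulatory light chains such as Myl9, pulls on filaments of the actins Acta2 and Actg2. Tropomyosins (Tpm1, Tpm2) lie along these filaments, calponin (Cnn1) and transgelin (Tagln, also called SM22) bind them, leiomodin (Lmod1) nucleates them, and desmin (Des) is the intermediate filament of muscle. In liver the full set is typical of vascular smooth muscle, while desmin marks stellate cells of rodents at rest and Acta2 is the usual marker of stellate cells that have become myofibroblasts. Many of these genes carry binding sites for serum response factor (SRF), called CArG boxes, near their starts.

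Total counts ranged from 14468418 to 22112552 per library. Levels are given in CPM, a library's counts scaled to a common total, after TMM scaling of library sizes, whose factors were 0.994 to 1.34 in high-fat libraries and 0.679 to 1.01 in control libraries. Control replicate 10 stood apart: it had the fewest counts, the lowest factor and 3.65% of its counts on mitochondrial genes, against 6.04% to 8.68% in the other control libraries. Replicates 1 to 6 of both diets had 2664 to 6285 counts of Xist, and replicates 7 to 12 had 0 to 3 together with 448 to 1016 counts of the Y-linked gene Ddx3y. These sets of 12 libraries, 6 per diet in each, are called the Xist-high and Xist-low sets. Their sizes match the stated number of mice per diet and sex, but they were split here by counts of Xist and not by the labels. A call needed a log2 fold change beyond 0.5 in either direction and an adjusted p no greater than 0.01 in edgeR's quasi-likelihood test. At these thresholds 72.6% of the calls were higher on the high-fat diet, and 94.4% were when library totals alone set the scale. That scale moved the median log2 fold change of all genes from -0.03 to 0.26.

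Promoter windows from RefSeq, 250 bases before to 50 bases after the start on GRCm38.p6, were at hand for 7 of the 10 genes (Acta2, Des, Lmod1, Myl9, Tpm2, Cnn1 and Tpm1). The stretches that read as a CArG box, or as one with a single C or G in its A/T core, are shown because this is the element the contractile genes are known for. Among these 7 windows they lay in those of Acta2 and Myl9 only, and capitals mark the match, read along the strand of the gene.
Acta2, chr19:34255448-34255457, minus strand: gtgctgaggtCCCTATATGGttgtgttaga
Acta2, chr19:34255398-34255407, minus strand: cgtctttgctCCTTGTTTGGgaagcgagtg
Myl9, chr2:156775303-156775312, plus strand: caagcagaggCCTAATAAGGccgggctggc
Myl9, chr2:156775365-156775374, plus strand: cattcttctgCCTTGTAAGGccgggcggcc
The first of the Myl9 stretches was an exact CArG box, a pattern that 1.63% of all 32851 windows of this length held. The other 3 had a single C or G in the core, as 8.5% of windows did. The pattern reads alike on both strands. The letters CATTCC, the MCAT element of TEAD factors, were found on either strand in the windows of Acta2, Tpm1 and Lmod1 and in 14.7% of all windows. TATAAA was in none of the 7 windows and in 13.6% of all. Both Acta2 stretches lie within the Acta2 locus of GENCODE M21 given below, because the RefSeq start used for the window differs from the start of that locus. A match here is a match of letters, not a shown binding site.

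At these thresholds high-fat diet livers had more RNA of the tropomyosins and of desmin, while the smooth muscle myosin heavy chain and the actins did not pass the test. The log2 fold changes of Des and Acta2 were close, at 0.57 and 0.53, so the call alone does not set them apart. Des and Tpm1 were not called within the Xist-high set, nor Tpm2 within the Xist-low set. Of the 10 genes, 3 were called higher (Tpm1, Tpm2 and Des) and 0 lower, beside 13.2% of all 17913 genes tested that were called higher and 4.99% that were called lower. The median log2 fold change was 0.48 over the 10 genes, of which 7 lay above 0, and -0.03 over all genes tested. For no gene of the 10 were all high-fat libraries above all control libraries, which held for 1.48% of all genes. Since the genes were chosen with earlier results of these data known, these counts describe them and are not a test of the group.

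**Figure D1:**
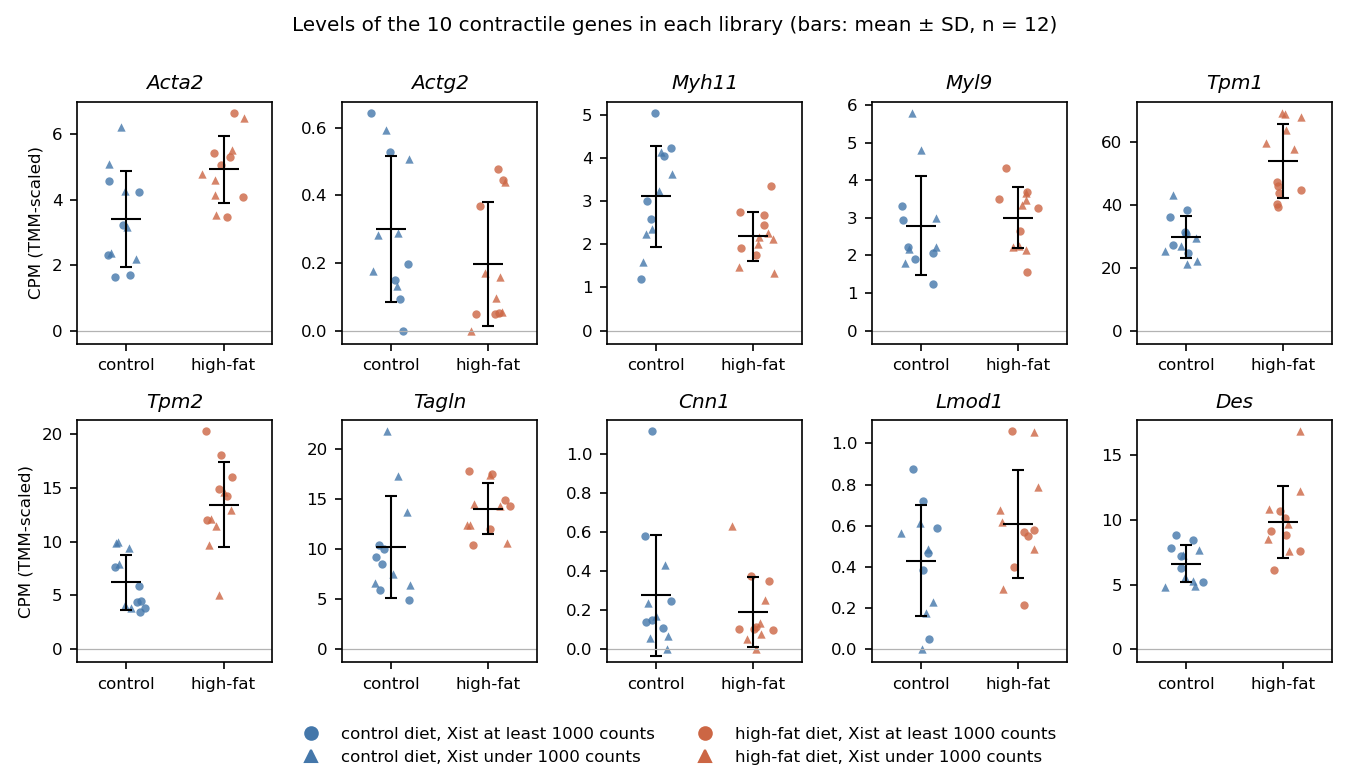
Level of each gene (vertical axes, TMM-scaled CPM) in the 12 control and 12 high-fat libraries, circles for the Xist-high and triangles for the Xist-low set, with bars for the mean ± SD. Tpm1, Tpm2 and Des sit higher on the high-fat diet with partial overlap, Acta2 and Tagln sit within the control range for most libraries, and Myh11 sits lower.

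The levels spanned a wide range. Per kilobase of merged exons, high-fat diet levels (CPM per kb, mean ± SD, n = 12) were 8.35 ± 1.81 for Tpm1, 7.07 ± 1.29 for Tagln, 4.62 ± 1.35 for Tpm2, 2.62 ± 0.737 for Des, 2.59 ± 0.707 for Myl9 and 2.24 ± 0.470 for Acta2. Below these came Myh11 at 0.287 ± 0.0746, Lmod1 at 0.154 ± 0.0667, Actg2 at 0.127 ± 0.117 and Cnn1 at 0.0697 ± 0.0655 CPM per kb. Tpm1 and Tagln lay within 1 SD of each other, as did Des, Myl9 and Acta2, Lmod1 and Actg2, and Actg2 and Cnn1. In control livers Tagln (5.13 ± 2.55) and Tpm1 (4.59 ± 1.03) again led, within their spread, and Acta2 stood at 1.55 ± 0.667 CPM per kb. The genes that mark differentiated smooth muscle most narrowly, Myh11, Cnn1, Actg2 and Lmod1, were thus the 4 lowest on either diet.

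Acta2 (alpha smooth muscle actin; chr19:34241090-34255590, minus strand, in GENCODE M21 on GRCm38) had 3.47 to 6.66 CPM with a median of 4.92 on the high-fat diet, and 1.63 to 6.23 CPM with a median of 3.19 on the control diet. These levels rest on 67 to 165 and 31 to 110 counts. All 12 high-fat libraries exceeded the control median, but only 2 exceeded the highest control library. Means were 4.92 ± 1.03 and 3.41 ± 1.46 CPM (SD, n = 12 each). The log2 fold change was 0.53 (SE 0.19, 95% interval 0.14 to 0.93, a 1.45-fold difference), with an adjusted p of 0.0300, so Acta2 was not called. A two-sided permutation test of its mean log2(CPM + 1), for this gene alone, gave p = 0.00606. The call turned on the processing: Acta2 was called with library totals alone (0.84, adjusted p = 0.000905), with limma-voom (0.65, adjusted p = 0.00777) and without control replicate 11 (0.65, adjusted p = 0.00679), but not without control replicate 10 (0.59, adjusted p = 0.0159). Control replicates 11 and 10 had the highest control levels of Acta2, 6.23 and 5.09 CPM. The rank of replicate 10 depends on its low TMM factor. By library totals alone it had 3.46 CPM, below control replicates 3 (3.98), 5 (4.09), 7 (3.71) and 11 (5.96).

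Actg2, the enteric gamma actin of smooth muscle (chr6:83512905-83536265, minus strand), was near the limit of detection, with 0 to 9 counts per high-fat library and 0 to 11 per control library. Its levels were 0.197 ± 0.182 and 0.300 ± 0.216 CPM. A count of 3 equals 0.118 to 0.167 CPM in a high-fat library and 0.138 to 0.305 CPM in a control library. The fitted log2 fold change, -0.59, had an interval from -1.64 to 0.47 (adjusted p = 0.382), so a difference was not detectable at this depth. Of the actins of striated muscle, Acta1 was too low to be tested and Actc1 had a log2 fold change of 0.61 that did not pass the test (adjusted p = 0.392).

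Myh11, the heavy chain of smooth muscle myosin (chr16:14194535-14291372, minus strand), had a negative point estimate. It had 1.33 to 3.35 CPM with a median of 2.14 on the high-fat diet, and 1.20 to 5.05 CPM with a median of 3.11 on the control diet. The groups overlapped, with 11 of 12 high-fat libraries below the control median. The log2 fold change was -0.51 (SE 0.20, interval -0.92 to -0.11) and missed the threshold (adjusted p = 0.0406). With library totals alone it was -0.25 (adjusted p = 0.356).

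Myl9, the regulatory light chain (chr2:156775420-156781658, plus strand), had 1.56 to 4.32 CPM with a median of 3.31 on the high-fat diet and 1.24 to 5.80 CPM with a median of 2.23 on the control diet. The ranges overlapped throughout. Its log2 fold change was 0.12 (interval -0.31 to 0.56, adjusted p = 0.682). Control replicates 10 and 11 were again the highest control libraries, at 5.80 and 4.81 CPM, and the log2 fold change was 0.26 without the former and 0.22 without the latter. Its size also moved when other libraries were left out: it was 0.20 without high-fat replicate 2, 0.064 without high-fat replicate 3, and 0.048, 0.081 and 0.075 without control replicates 2, 4 and 9. With library totals alone it was 0.44 (adjusted p = 0.0838). Myl9 was called in none of these fits.

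Tpm1 (alpha tropomyosin; chr9:67022590-67049406, minus strand) was the most abundant of the 10 and showed the lowest p. It had 39.4 to 69.6 CPM with a median of 52.6 on the high-fat diet, and 21.2 to 43.2 CPM with a median of 28.3 on the control diet. In 10 of 12 high-fat libraries it exceeded every control library. Means were 54.2 ± 11.7 and 29.8 ± 6.67 CPM, a log2 fold change of 0.86 (SE 0.12, 1.82-fold, adjusted p = 9.38e-06). Tpm2 (beta tropomyosin; chr4:43514711-43523765, minus strand) had the largest positive fold change of the 10, with means of 13.4 ± 3.93 and 6.22 ± 2.56 CPM and a log2 fold change of 1.12 (SE 0.21, 2.17-fold, adjusted p = 0.000147). It had 5.07 to 20.3 CPM (median 13.6) in high-fat and 3.46 to 9.97 CPM (median 5.15) in control libraries. Again 10 of 12 high-fat libraries exceeded every control library, and replicate 9 was the lowest high-fat library. Both genes also encode tropomyosins of cells other than muscle, and counts per gene do not separate these transcripts.

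Des (chr1:75360329-75368579, plus strand) had 6.13 to 16.9 CPM with a median of 9.40 on the high-fat diet and 4.79 to 8.85 CPM with a median of 6.73 on the control diet. It exceeded every control library in 7 of 12 high-fat libraries. The log2 fold change was 0.57 (SE 0.14, 1.49-fold, adjusted p = 0.00208), close to the fold threshold. Without high-fat replicate 9, its highest library, the value was 0.49 (adjusted p = 0.00314) and Des was no longer called. Without control replicate 10, which stood apart in depth, Tpm1, Tpm2 and Des were all called, at 0.83, 1.18 and 0.54, and Myh11 was not, at -0.54 (adjusted p = 0.0324).

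Tagln (chr9:45929619-45936058, minus strand) resembled Acta2, with 10.4 to 17.8 CPM (median 14.3) on the high-fat diet and 4.87 to 21.8 CPM (median 8.85) in control libraries. All 12 high-fat libraries exceeded the control median and none the highest control library, replicate 10. By library totals alone control replicate 11 was higher than replicate 10, at 16.6 against 14.8 CPM. The log2 fold change of 0.47 (SE 0.19, interval 0.08 to 0.87) was not called (adjusted p = 0.0532). It was called with library totals alone (0.79, adjusted p = 0.000645), with limma-voom (0.63, adjusted p = 0.00607) and without control replicate 10 (0.62, adjusted p = 0.00445). Exons of Tagln share 1349 bases with Pcsk7 and Gm48529 on the opposite strand, and the sources used here do not say whether counting of the mouse libraries used the strand, so reads of these genes may not be told apart. Pcsk7 (mean 26.2 and 30.4 CPM on the high-fat and control diets) and Gm48529 (2.07 and 2.38 CPM) were not called.

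Cnn1 (chr9:22099216-22109630, plus strand) had 0 to 13 counts per high-fat library and 0 to 19 per control library, with 1 library of each diet at 0. Its log2 fold change of -0.54 (interval -1.62 to 0.55, adjusted p = 0.439) was not a detectable difference at this depth. It was -0.85 without high-fat replicate 7, -0.10 without control replicate 5 and -0.26 with library totals alone, not called in any of these. Lmod1 (chr1:135324807-135368065, plus strand) had 0.608 ± 0.263 and 0.430 ± 0.270 CPM, from 4 to 25 and 0 to 19 counts. Its log2 fold change of 0.49 (interval -0.27 to 1.25, adjusted p = 0.303) was not called.

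**Figure D2:**
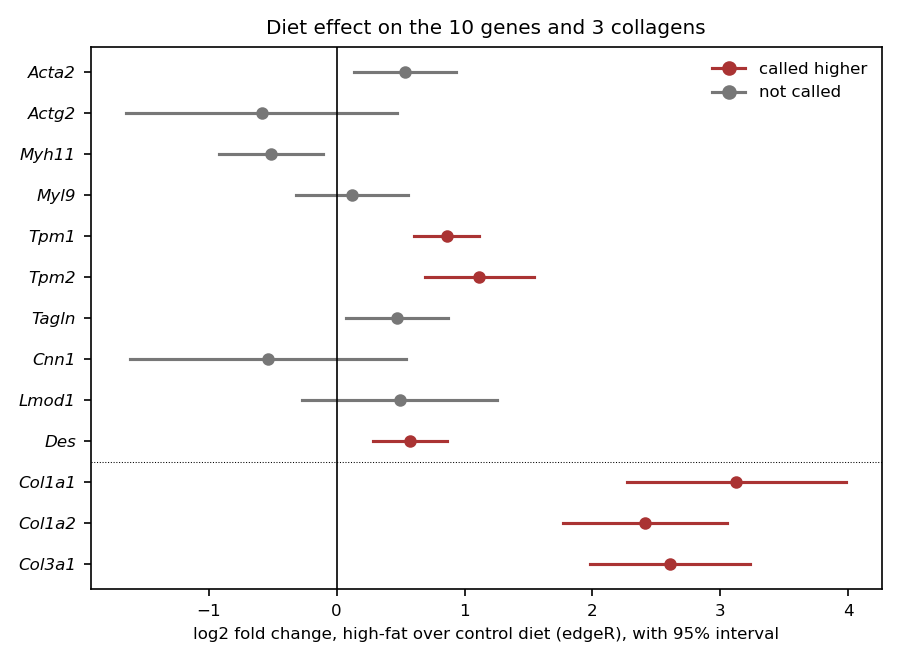
Log2 fold change of the high-fat over the control diet (horizontal axis, points) with its 95% interval (lines) for the 10 genes and 3 collagens, red where called. The intervals of Tpm1, Tpm2 and Des lie above 0, as do those of Acta2 and Tagln without a call, that of Myh11 lies below 0 without a call, and the collagens lie at 2.41 to 3.12.

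The study uses collagen as its readout of fibrosis, and stellate cell activation is known to raise both collagen and Acta2. Col1a1 and Col1a2, the chains of type I collagen, and Col3a1, that of type III, were called higher by log2 fold changes of 3.12 (SE 0.42), 2.41 (SE 0.31) and 2.60 (SE 0.30), each with an adjusted p of at most 4.09e-06. The log2 ratio of Acta2 to Col1a1, from CPM + 1, averaged -4.10 ± 0.983 in high-fat libraries and -1.43 ± 0.862 in control libraries (SD, n = 12). The difference of -2.67 had an adjusted p of 4e-05 (two-sided permutation test, adjusted over 2 ratios, the smallest value that 100000 resamples can give). It was -1.80 within the Xist-high and -3.54 within the Xist-low set (exact permutation p = 0.00433 and 0.00216), and lay between -2.84 and -2.54 with any 1 library left out. High-fat replicate 3 had the lowest Col1a1 of its diet, 34.4 CPM, and the highest Acta2, 6.66 CPM. Control replicate 11 had the highest Col1a1 of its diet, 55.1 CPM, beside the highest Acta2.

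**Figure D3:**
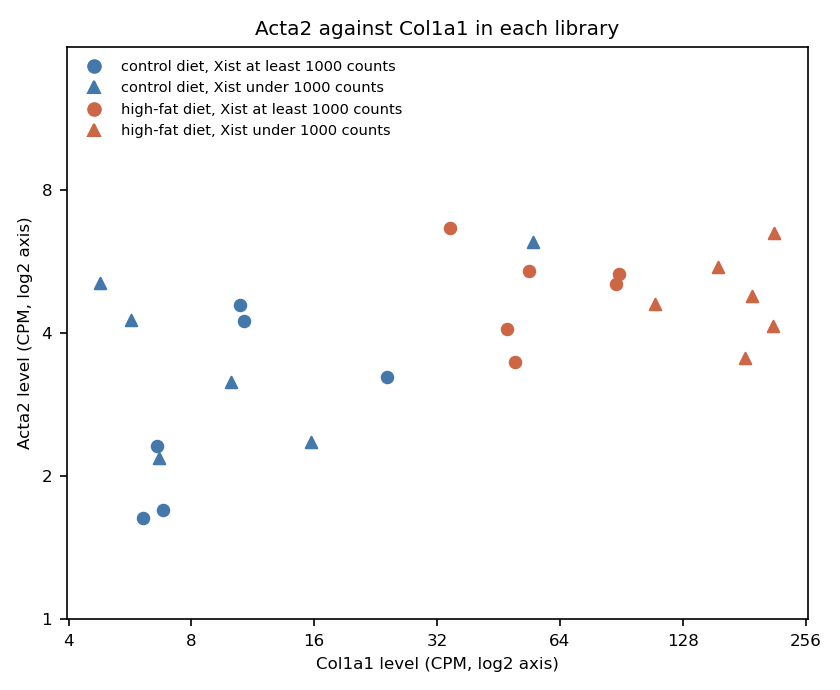
Acta2 (vertical axis) against Col1a1 (horizontal axis) in each of the 24 libraries, in CPM on log2 axes, by diet (colour) and set (shape). Col1a1 spans 4.79 to 214 CPM and Acta2 1.63 to 6.66 CPM.

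The log2 ratio of Acta2 to Des averaged -0.85 ± 0.389 in high-fat libraries and -0.83 ± 0.479 in control libraries. The difference of -0.02 was within the spread of libraries (permutation p = 0.911). It was 0.41 within the Xist-high set and -0.46 within the Xist-low set, neither past the threshold (exact permutation p = 0.0909 and 0.106), and whether the sets differed in this ratio was not tested.

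The diet effects were also fitted within each set. Within the Xist-high set Tpm2 and Tagln were called higher, beside 2.91% of all genes, and within the Xist-low set Tpm1 and Des were, beside 14.3%. For Tpm1 the high-fat libraries were 43.6 ± 3.17 CPM in the Xist-high set and 64.7 ± 5.003 CPM in the Xist-low set, against 31.5 ± 5.12 and 28.1 ± 8.03 CPM in control libraries (n = 6 each). The log2 fold changes were 0.48 (adjusted p = 0.00792, under the fold threshold) and 1.22. For Tpm2 the order was the opposite, with high-fat libraries at 15.9 ± 2.91 CPM in the Xist-high and 10.97 ± 3.31 CPM in the Xist-low set, control libraries at 4.93 ± 1.54 and 7.50 ± 2.84 CPM, and log2 fold changes of 1.69 and 0.57. In the Xist-high set all 6 high-fat libraries exceeded all 6 control libraries for 2 of the 10 genes, Tpm1 and Tpm2, beside 3.51% of all genes. In the Xist-low set this held for Tpm1 alone, beside 12.6% of all genes. The test of the difference itself, the interaction of diet and set, was passed by 4.06% of all genes and by 0 of the 10. Its log2 value, the Xist-low minus the Xist-high effect, was 0.74 for Tpm1 (SE 0.19, adjusted p = 0.0125) and -1.13 for Tpm2 (SE 0.35, adjusted p = 0.0382). At an unadjusted p under 0.05 in the same edgeR fit, 3 of the 10 passed (Tpm1, Tpm2 and Des), beside 23.9% of all genes. Des had log2 fold changes of 0.27 and 0.90 (interaction adjusted p = 0.133), and Acta2 of 0.77 and 0.35 (interaction adjusted p = 0.523).

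**Figure D4:**
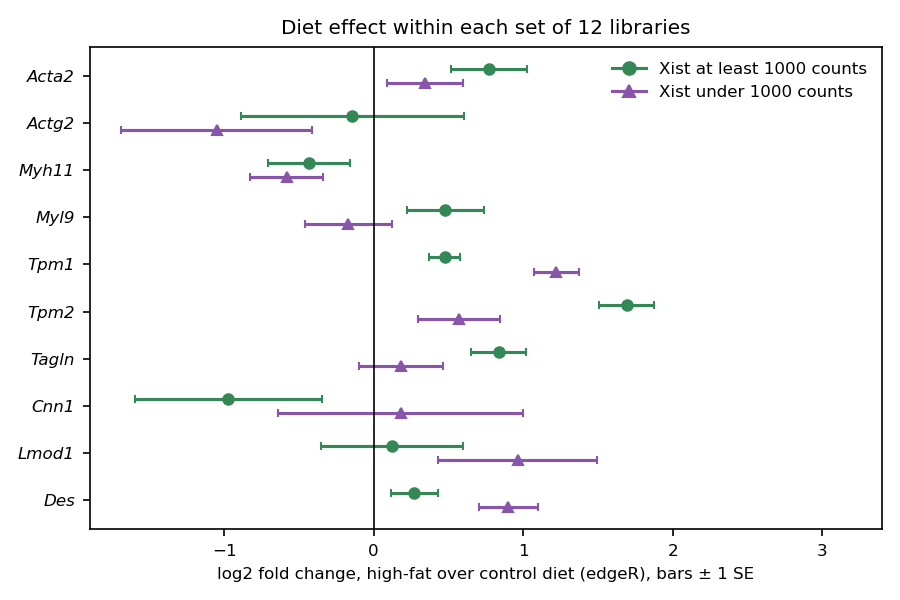
Log2 fold change of the high-fat over the control diet (horizontal axis, bars ± 1 SE) fitted within the Xist-high set (circles) and the Xist-low set (triangles), 6 libraries per diet in each. Tpm1 and Des have the larger value in the Xist-low set, Tpm2, Tagln and Acta2 in the Xist-high set.

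Within a diet and set, the livers with more Acta2 also had more Myl9. After subtraction of the mean of each diet and set, log2(CPM + 1) of Acta2 and Myl9 had a Pearson r of 0.81 over 24 libraries (permutation within diet and set, adjusted p = 0.0001 over 20 relations) and a Spearman rho of 0.80 (adjusted p = 0.0001), with r = 0.77 without the 2 libraries farthest in Acta2. It was 0.89 in the Xist-high and 0.76 in the Xist-low set. Both adjusted values are the smallest that 100000 permutations can give here. Tagln (r = 0.65, rho = 0.67, adjusted p = 0.0231 for each), Actg2 (r = 0.60, rho = 0.60, adjusted p = 0.0231 for each) and Myh11 (r = 0.58, rho = 0.56, adjusted p = 0.0364 for each) had lower values. Without the 2 farthest libraries their r was 0.55, 0.69 and 0.61. In the Xist-high and Xist-low sets r was 0.54 and 0.75 for Tagln, 0.79 and 0.34 for Actg2, and 0.65 and 0.49 for Myh11. The genes called between diets did not pass this test against Acta2, with r = 0.31 for Tpm1, 0.05 for Tpm2 and 0.38 for Des, and rho of 0.23, 0.06 and 0.38 (lowest adjusted p = 0.113). Lmod1 had r = 0.50 and rho = 0.54 (adjusted p = 0.0574 and 0.0366), and Cnn1, at 0 to 19 counts, r = 0.44 and rho = 0.39 (adjusted p = 0.111 and 0.138). Col1a1 had r = 0.33 and rho = 0.23 (adjusted p = 0.301 and 0.393), and r = 0.05 without the 2 farthest libraries. Without control replicate 10, r was 0.82 for Myl9, 0.63 for Tagln, 0.58 for Actg2 and 0.63 for Myh11. These relations were among samples of whole tissue that share library, depth and scaling.

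**Figure D5:**
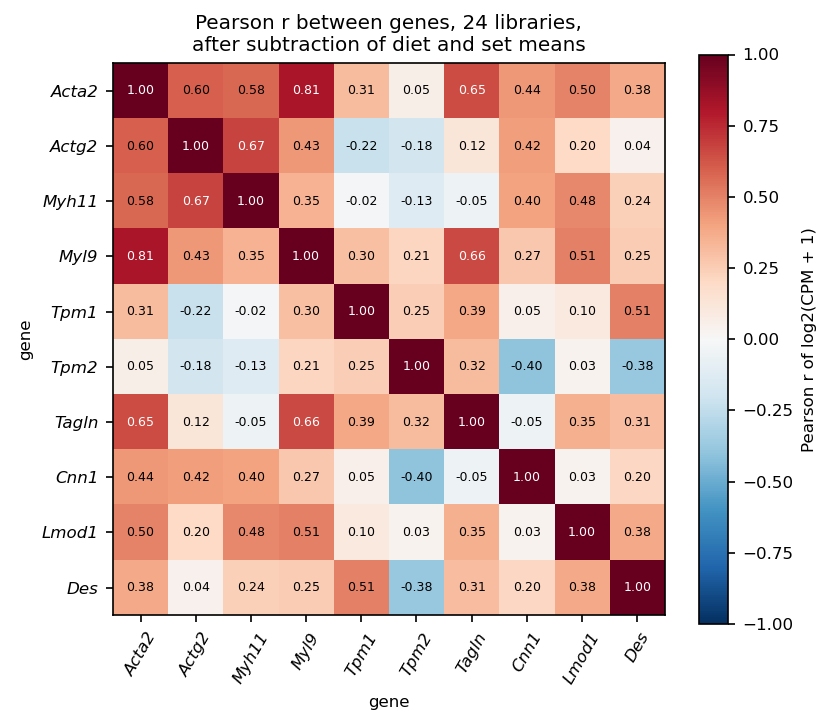
Pearson r of log2(CPM + 1) between each pair of the 10 genes over 24 libraries, after subtraction of diet and set means, on a colour scale from -1 to 1. Acta2, Myl9 and Tagln have pairwise values of 0.65 to 0.81, Actg2 and Myh11 have 0.67, Tpm1 and Des have 0.51, and Tpm2 and Des have -0.38.

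Of 12763 other genes with a mean of at least 1 CPM, those named as most like Acta2 across the 24 libraries, after subtraction of diet means, were Hexim1 (r = 0.76), Tnc (0.69), Btg2 (0.65), Nr0b2 (0.62), Adrm1 (0.61), Ubfd1 (0.61) and Sfr1 (0.60). Hexim1 encodes an inhibitor of the elongation factor P-TEFb, Tnc the matrix protein tenascin C, Btg2 an antiproliferative protein and Nr0b2 the nuclear receptor SHP. Tnc was called higher on the high-fat diet (log2 fold change 2.04, adjusted p = 3.57e-05), as was Btg2 (0.71, adjusted p = 0.00218). They are the highest of many values, without a test.

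Some other genes of the contractile and cytoskeletal machinery were called higher as well. The counts in this paragraph stand beside 13.2% of all genes tested that were called higher and 4.99% called lower. Of 40 such genes, all of them tested, 21 were called higher, 0 lower and 19 not called, with a median log2 fold change of 0.56. The lowest p-values were those of Tagln2 (2.05, SE 0.19), a relative of Tagln in many cell types, Flna (1.27, SE 0.15), the crosslinker filamin A, and Actb (0.89, SE 0.11), the actin of all cells. Their mean levels were 61.7, 70.1 and 677 CPM in high-fat libraries against 14.8, 29.1 and 366 CPM in control libraries. Mylk and Cald1 of the same list, named after their values were seen, were not called, with log2 fold changes of -0.006 and 0.006. Their mean levels were 72.0 and 190 CPM in high-fat libraries. Of SRF, its coactivators and partners, 12 of 14 were tested and 3 called higher, none lower: Mrtfa (0.55, adjusted p = 0.00037), which carries actin signals to SRF, Tcf21 (0.88, adjusted p = 0.00172), a transcription factor of stellate cells, and Tead1 (0.80, adjusted p = 0.00345), which binds MCAT elements. The smooth muscle coactivator Myocd was too low to be tested. Srf, named after its values were seen, had 15.2 ± 1.22 and 14.5 ± 1.75 CPM (log2 fold change 0.07, adjusted p = 0.456). Of 26 tested genes for the control of contraction by calcium and other signals, Rhob, a small GTPase, was called higher (0.55, adjusted p = 0.00196) and Avpr1a, the vasopressin receptor, lower (-1.59, adjusted p = 9.67e-05).

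Markers of several cell types moved with diet, and their part in the results above was not tested. Of vascular smooth muscle and pericyte markers outside the 10, 3 of 12 tested were called higher, Mcam (1.10), Heyl (1.22) and Itga8 (1.34), and none lower. The summed level of these 12 tested markers was 89.5 to 240 CPM on the high-fat and 51.0 to 108 CPM on the control diet. Of the 18 listed, those too low to be tested are not in the sum, and Rergl was at 0 in every library. Of 15 markers of quiescent stellate cells, 4 were called higher, 0 lower and 11 not called. Pdgfrb (1.42), Ngfr (0.85) and Colec11 (0.56) had the lowest p. The median log2 fold change of the 15 was 0.09, with 8 above 0, so the list as a whole did not shift clearly. Its summed levels were 470 to 754 and 444 to 946 CPM. Of 19 markers of activated stellate cells and myofibroblasts, 18 were called higher, led by Col5a1 (1.42), Col3a1 (2.60) and Col5a2 (2.13), with a median log2 fold change of 2.04 beside 0.48 for the 10 contractile genes. Summed levels of this list were 1648 to 2426 and 1090 to 2599 CPM. Most of that sum was Fn1 (fibronectin, which hepatocytes also make), named after its values were seen, at 1181 and 1697 CPM on average. It was the 1 gene of the list not called higher (log2 fold change -0.52, adjusted p = 0.0122). Portal fibroblast markers were called higher for 9 of 15 (Eln, Entpd2 and Gas6 had the lowest p), with sums of 166 to 495 and 54.2 to 199.6 CPM, and mesothelial markers for 3 of 8 (Krt19, Wt1 and Gpm6a), with sums of 5.97 to 55.9 and 2.44 to 10.8 CPM. Cholangiocyte markers were called higher for 9 of 11 tested (Spp1, Tspan8 and Krt19), with sums of 48.4 to 1012 and 47.8 to 159 CPM. Spp1 was the largest part of these sums, at 268 and 43.5 CPM on average, so they mostly follow that 1 gene. Krt19 is on both the mesothelial and the cholangiocyte list. On the high-fat diet it was the largest part of the mesothelial sums, at 7.22 CPM on average, against 1.09 CPM on the control diet. Its call and its part of either sum therefore do not tell these cell types apart. Endothelial markers were called higher for 2 of 8 (Stab2 and Vwf) and lower for 0, with sums of 170.1 to 417 and 151 to 333 CPM. Their median log2 fold change was 0.30, with 5 of the 8 above 0. Clec4g (-0.47) and Kdr (-0.26), named after their values were seen, had negative values without a call. Macrophage markers were called higher for 6 of 9 (Itgax, Gpnmb and Trem2), with sums of 318 to 649 and 92.8 to 388 CPM. Hepatocyte markers were called lower for 7 of 10, led by Serpina1a (-0.79), Ttr (-0.62) and Pck1 (-1.12), with sums of 40670 to 97583 and 87504 to 140391 CPM.

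Markers of other muscle were mostly low. Only 5 of 17 skeletal muscle markers could be tested, Myh2 and Pvalb were at 0 in every library, and Neb, the gene of nebulin, was called lower (-1.03, adjusted p = 0.00491). Neb had 5.11 ± 1.94 CPM on the high-fat and 10.4 ± 6.25 CPM on the control diet, from 60 to 407 counts, while the other 4 tested had at most 27 counts in a library. Summed levels of the 5 tested were 4.01 to 10.3 CPM on the high-fat and 4.34 to 23.5 CPM on the control diet. Of 8 cardiac markers, the 5 tested summed to 0.271 to 1.70 and 0.461 to 1.18 CPM, with none called and Myh6 at 0 throughout. Of 11 markers of intestinal and pancreatic epithelium, the 4 tested summed to 19.8 to 35.0 and 26.4 to 95.2 CPM. None was called, and Cdx2 and Cpa1 were at 0 throughout. Markers seen in too few libraries to be tested are not in these sums.

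Little of the sequence of the 10 genes is shared with other genes. Of all 50-base words in GENCODE M21 transcripts, 0.326% of those of Acta2 also occurred in another gene (Actg1 and pseudogenes) and 0.340% of those of Myh11 did (Myh10 and Myh9), and none of those of the other 8. Exons of Des share 220 bases with Gm15179 on the opposite strand.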

How the data were processed

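RNA from whole mouse liver was sequenced in 24 libraries, 12 per diet. From poly(A)-selected RNA, the authors made and deposited raw counts for each Ensembl gene. The submitters' processing notes name bcl2fastq, STAR 2.7.3a and mm10. The supplement describes a stranded mRNA kit for its RNA sequencing libraries without naming a species. For alignment to the human genome it names the exon quantification pipeline with the same STAR version, and PISCES. The program and strand setting used to count the mouse libraries are not given in the sources used here. Libraries were grouped by their titles, and symbols and loci of 51745 gene IDs came from GENCODE M21 (GRCm38). Libraries held 14468418 to 22112552 counts, and a count of 3 was taken as the floor of detection, for counting error only. Nothing in the labels ties libraries to separate animals beyond the stated number per diet and sex, so p-values measure the spread between libraries. No pair of libraries of 1 diet was alike within sampling noise (lowest chi-square per degree of freedom 9.48).

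The 17913 genes seen with a minimum of 1 count in 12 or more libraries were tested with edgeR 4.0.16 in R 4.3.3 (quasi-likelihood, TMM, a model of diet, p-values adjusted by Benjamini-Hochberg). Calls required a log2 fold change beyond 0.5 in either direction and an adjusted p no greater than 0.01. The test was checked on simulated counts. CPM used TMM-scaled library sizes. Single values used two-sided permutation tests with 100000 resamples (scipy), exact for 6 libraries against 6, and a pseudocount of 1 CPM. Libraries with at least 1000 counts of Xist formed the Xist-high set. The rule for names covered all 10 genes, the 3 called genes of lowest p in each list, the 8 genes most like Acta2, of which 1 is not reported here, and 3 collagens. The members, gene lists and tests were chosen with earlier results of these data known. Alternatives were library totals or DESeq2 size factors, DESeq2 1.42.0, limma-voom (limma 3.58.1), 3 other filters, 2 other thresholds, the set as a covariate, each set alone, the replicate number as a block, a pseudocount of 0.1 and each library left out.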

Additional observations from a re-analysis of the deposited data

How the results depend on the processing

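Apart from single libraries left out, 4 alternatives moved the number of genes called higher by over 1.5 times and 9 did not. For genes called lower, 5 did and 8 did not. Against 2372 higher and 894 lower genes, library totals alone gave 3827 and 226, an adjusted p up to 0.05 with any fold change 3709 and 3388, and the Xist-high set 525 and 162. Requiring 10 counts in each library gave 1226 higher, a log2 fold change over 1 gave 216 lower, and the Xist-low set 1430 lower. Leaving out 1 library gave 2188 to 2468 higher and 700 to 995 lower.

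Of the 10 contractile genes, 3 were called higher and 0 lower. Library totals and limma-voom gave 5 higher (Acta2 and Tagln added), a log2 fold change over 1 gave 1 (Tpm2), and an adjusted p up to 0.05 alone gave 1 lower (Myh11). With 1 library left out the numbers were 2 to 4 higher and 0 lower. The log2 fold change of Acta2, 0.53 and not called, was called at 0.84 with library totals, 0.65 with limma-voom and 0.61 with the replicate block, and was 0.47 to 0.65 with 1 library left out. Adjusted p-values of Acta2 over the alternatives other than single libraries ran from 0.000905 to 0.307. Point estimates reversed for Myl9 (-0.17) and Cnn1 (0.18) in the Xist-low set, neither called. The ratio of Acta2 to Col1a1 kept its direction and call under every alternative run. The ratio of Acta2 to Des, a difference of -0.02 without a call, was 0.051 with a pseudocount of 0.1, 0.41 in the Xist-high set, and -0.11 to 0.061 with 1 library left out. The cause of these changes was not tested.

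Deviations from the diet mean had r from -0.09 to 0.54 between libraries with the same number, over 0.1 in 11 of 12 pairs. Set means were not subtracted here, and libraries with the same number share a set, so these values include differences between the sets. Only 2 high-fat and 4 control libraries correlated best with their own number, which does not meet the rule for pairing. The replicate block gave 2063 higher and 844 lower genes. Acta2 was then called (adjusted p = 0.00666) and Des was not (0.55, adjusted p = 0.0189), and the ratios of Acta2 to Col1a1 and to Des were -2.67 and -0.02 (sign-flip exact permutation p = 0.000488 and 0.906). Depth limits Actg2, Cnn1 and Lmod1, with at most 25 counts per library.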
